A study of Homo sapiens with 4 samples.

Results

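The genes of the translation initiation factors were examined in K562 cells after 4 h with AC-1041. A gene was taken as a member when its name on the array was EIF followed by a digit, leaving out the EIF2AK kinase genes and EIF2S1, which removed 5 probes. The rule found 46 genes, each with 1 probe, among 14267 genes with 14297 probes, and 41 of them were tested among 8852 probes tested in all. Some of the array's names are old: EIF2C1 to EIF2C4 are now AGO1 to AGO4, the Argonaute proteins of small RNA silencing, which are no initiation factors and were kept as a group of their own, and the EIF3S names are given here by their present letters.

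K562 is a human leukaemia cell line, and AC-1041 is a trifluorophthalimide, an analog of thalidomide. Each of the 4 two-colour Agilent arrays carried RNA of treated cells against RNA of control cells, called untreated in the labels and vehicle (DMSO) cells in the methods of the study. The labels give the time of 4 h and no dose, while the methods of the study state a concentration for each drug. RNA of treated cells was labelled with Cy5 on arrays 1 and 2 and with Cy3 on arrays 3 and 4. Nothing in the labels says that the 4 arrays came from separate cultures, so the spread between them may be technical. The methods state that samples of each drug and its controls were taken in quadruplicate. They do not say whether these were separate cultures or how they map to the arrays. The fit holds a term for the dye, so its SE and p-values measure the spread between arrays of the same dye orientation. They do not measure the difference between the orientations. The study's methods describe a dye-swap design in quadruplicate, and if arrays of opposite dye carried the same RNA, the number of independent samples is below the n = 4 printed here. In bulk RNA, a lower level in every cell and a smaller share of cells with the transcript cannot be told apart.

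Initiation places a ribosome on the start codon of an mRNA. eIF2 brings the initiator tRNA and eIF2B reloads eIF2 with GTP, the step that the eIF2 kinases slow under stress. eIF3 is the large scaffold on the small ribosomal subunit, and the eIF4 factors bind the cap and unwind the 5′ end. The EIF4EBP proteins hold the cap-binding protein eIF4E until mTOR phosphorylates them.

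The values are log2 ratios of treated over control cells, and a gene was called higher or lower at an adjusted p under 0.05 in limma, with a treatment term and a dye term, adjusted over all 8852 probes. The spots were dimmer against background on arrays 1 and 2, where 5941 to 7403 probes were well above background in a channel, than on arrays 3 and 4, where 8982 to 9515 were. The standard deviation of the negative control spots was 226 to 308 on the first pair and 27.8 to 40.5 on the second. Flagged outlier spots took out 14 members on array 1, 1 on array 2 and none on the other arrays. The dye orientation changes between the same pairs, so its part in a value and that of signal quality cannot be told apart. Of 13 markers of K562 on the array, 12 were well above background in control cells on all 4 arrays, and of 11 markers of other cell types, 4 (ALB, CDH1, COL1A1 and MS4A1) were so on none.

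The probes are 60 bases long and lie on hg18. Those of 5 subunit genes are shown 5′ to 3′ with G and C in capitals, because the difference between dye orientations described next went with this composition. Each holds at least 1 reading frame without a stop codon. They run from the least to the most G and C.
EIF2S2: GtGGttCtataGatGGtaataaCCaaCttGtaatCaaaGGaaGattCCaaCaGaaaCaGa
EIF2S3: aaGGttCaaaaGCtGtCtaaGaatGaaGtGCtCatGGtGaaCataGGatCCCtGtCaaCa
EIF4B: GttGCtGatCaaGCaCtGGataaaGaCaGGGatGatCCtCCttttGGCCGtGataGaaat
EIF3C: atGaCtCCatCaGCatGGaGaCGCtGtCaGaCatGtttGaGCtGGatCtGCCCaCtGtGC
EIF3G: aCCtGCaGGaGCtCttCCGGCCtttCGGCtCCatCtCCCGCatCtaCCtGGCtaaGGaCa
The EIF2S2 probe (chr20:32142011-32145142, minus strand) holds 21 G and C bases and the EIF2S3 probe (chrX:23999763-24001185, plus strand) 25. EIF4B (chr12:51701887-51702578, plus strand) has 27, EIF3C (chr16:28653653-28653800, plus strand) has 32 and EIF3G (chr19:10087380-10087439, minus strand) has 36. Apart from EIF3G, these positions span more bases than the probe, so the probe crosses a splice junction.

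Few initiation factor genes were called, and their estimates were small. Of the 41 members, 6 were called higher (AGO4, EIF2S2, EIF3H, EIF1, EIF3C and AGO3) and 2 lower (EIF4B and EIF4E). That is 14.6% and 4.88% of the members, where 24.3% of all probes were called higher and 13% lower. No member's estimate in this fit reached 1.5-fold in either direction, a size that 7.22% of all probes reached. The median size of the log2 ratio was 0.12 over members and 0.16 over all probes. The 95% interval lay within 0.5 of 0 for 40 of 41 members and for 6872 of all 8852 probes. This interval measures the spread within a dye orientation and leaves out the difference between orientations. The mean with treated RNA in Cy5 minus that in Cy3 was -2.13 for EIF2S2 and 1.98 for EIF1.

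**Figure D1:**
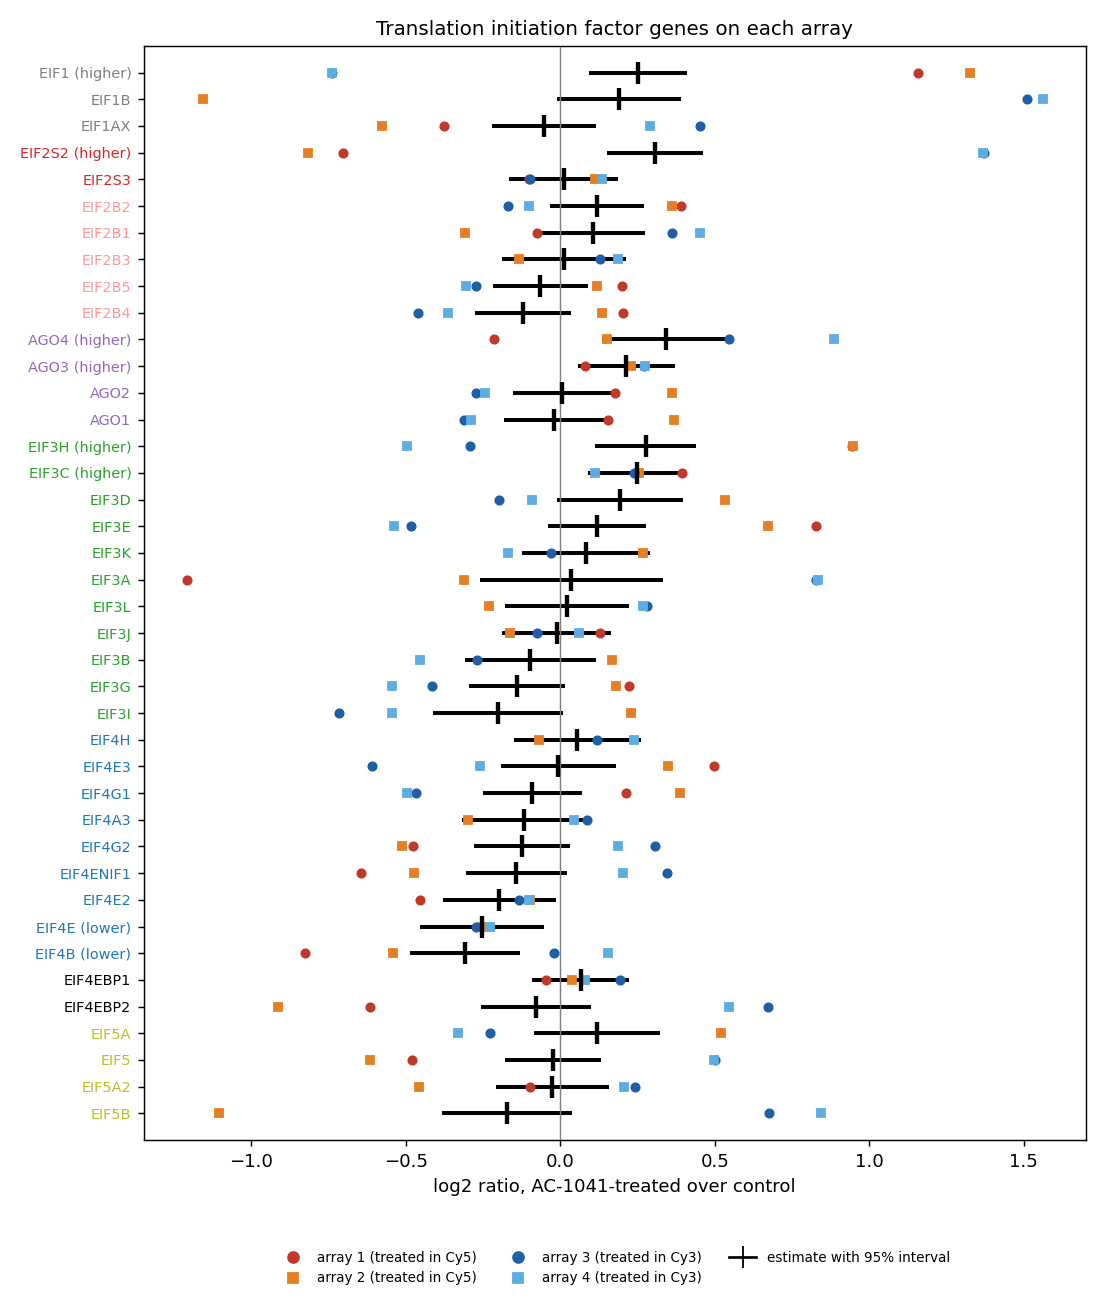
Log2 ratio of treated over control cells (x axis) for 40 tested initiation factor genes (rows, label colours mark the groups eIF1, eIF2, eIF2B, Argonaute, eIF3, eIF4, EIF4EBP and eIF5 from top to bottom). Points are arrays, black ticks the limma estimate and black bars its 95% interval. In most rows the red and orange points (treated in Cy5) and the blue points (treated in Cy3) lie on opposite sides of 0.

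The sign of a member's ratio went mostly with the dye that the treated RNA carried. In 35 of 41 members (85.4%) the mean of arrays 1 and 2 and the mean of arrays 3 and 4 had opposite signs, against 61.7% of all probes. The correlation between these means was -0.82 over the 41 members and -0.22 over all probes, as a description across genes, which are not independent. The dye term was past the threshold in 30 members (73.2%), against 58.2% of all probes. Only 3 of 28 members measured on all 4 arrays had the same sign on each (10.7%, against 25.9% of such probes): AGO3 and EIF3C above 0, and EIF4E2 below 0. Called members with the same sign on every array that measured them were also 3 of 41 (7.32%, against 20% of all probes), namely AGO3, EIF3C and EIF4E.

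**Figure D2:**
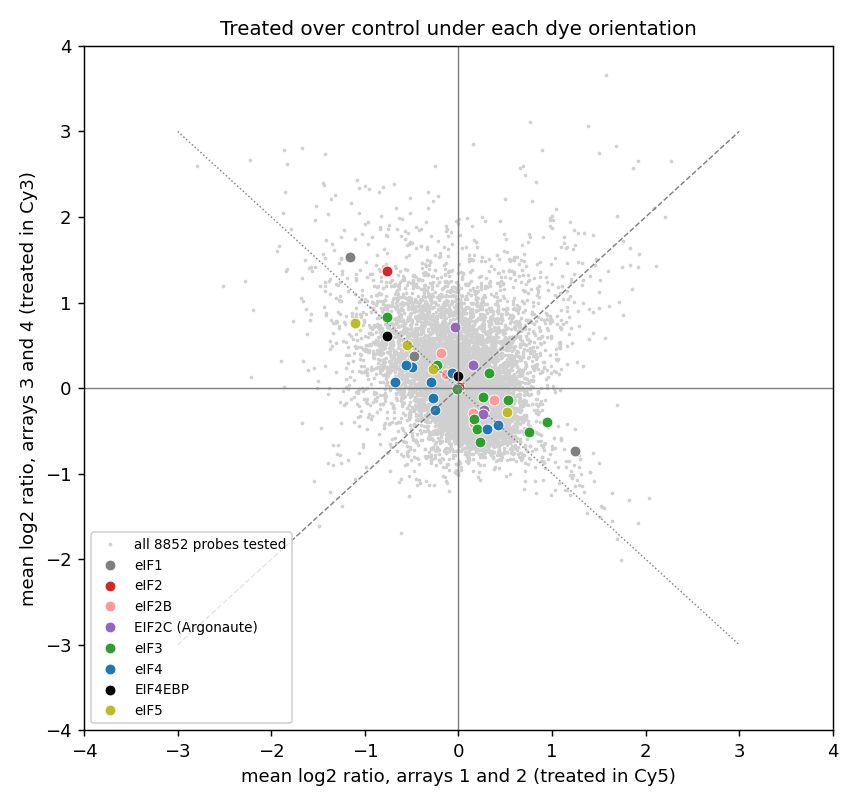
Mean log2 ratio on arrays 1 and 2 (x axis) against that on arrays 3 and 4 (y axis), in grey for all 8852 probes tested and in colour for 40 members by group. The dashed line marks equal values and the dotted line equal and opposite values, and the members lie along the dotted line (correlation -0.82 over the 41 tested).

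The dye term, the part of the ratio that changes sign with the labelling, went with the base composition of the probe. Its median over all probes rose from -0.45 where G and C made up at most 35% of the probe to 0.28 where they made up over 60%, and its correlation with this percentage was 0.60 over 8852 probes and 0.43 over the 41 members. Among the probes shown above, the dye term was -1.07 for EIF2S2, with 35% G and C, and 0.34 for EIF3G, with 60%. Composition does not order every member: EIF1, at 40%, had a dye term of 0.99. The treatment estimate itself had a correlation of -0.09 with composition over members and -0.24 over all probes.

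**Figure D3:**
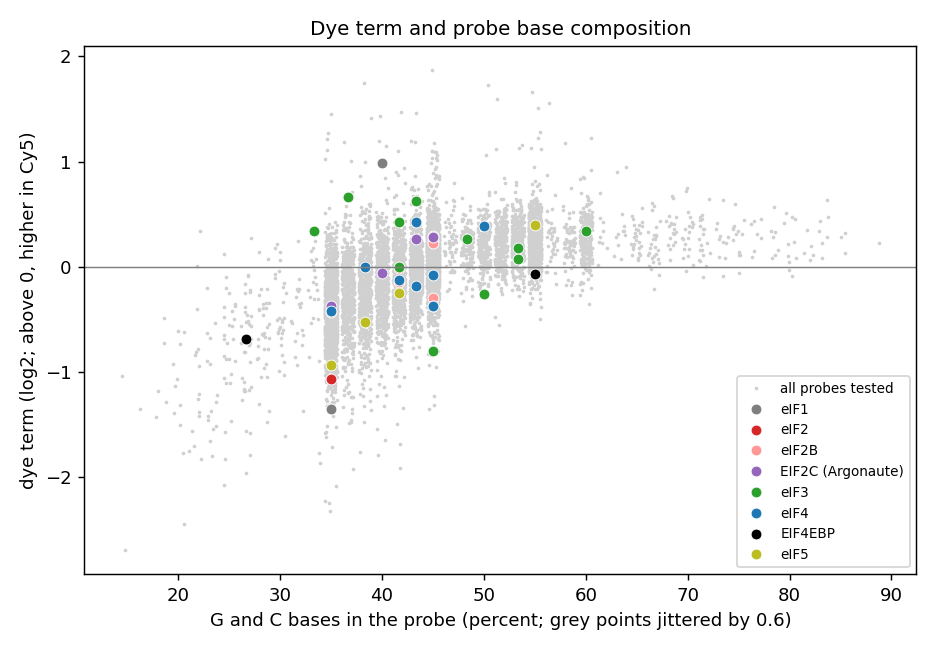
Dye term of the limma fit (y axis, log2; above 0 is higher in Cy5) against the percentage of G and C bases in the probe (x axis), in grey for all probes tested and in colour for 40 members by group. Probes with at most 35% G and C have a median of -0.45 and those over 60% a median of 0.28.

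Among the eIF2 genes, EIF2S2, the beta subunit, was called higher and EIF2S3, the gamma subunit that binds GTP and the initiator tRNA, was not. EIF2S2 read -0.70, -0.82, 1.37 and 1.37 on arrays 1 to 4, which gave an estimate of 0.31 ± 0.06 (SE, n = 4, limma adjusted p = 0.00726). Both arrays with treated RNA in Cy5 were below 0 and both others above it, so the estimate is the part left when opposite values of up to 1.37 are averaged. EIF2S3 read -0.10, 0.11, -0.10 and 0.13, with an estimate of 0.01 ± 0.07 (SE, n = 4, limma adjusted p = 0.918), and its 95% interval ran from -0.16 to 0.18. The probe of EIF2A was not well above background and was not tested. EIF2S2 was the member called under most of the other settings, 13 of 16, and the call was lost without array 3 or array 4 (limma adjusted p = 0.0695 and 0.0796) and without the dye term.

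The 5 subunits of eIF2B, the exchange factor of eIF2, lay between -0.12 and 0.12 and none was called. EIF2B2 had the highest estimate (0.12, limma adjusted p = 0.176), EIF2B4 the lowest (-0.12, limma adjusted p = 0.177) and EIF2B3 the median one (0.01). All 5 had opposite signs in the 2 orientations.

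Of the 11 tested eIF3 genes, 2 were called higher, EIF3H and EIF3C, and none lower. EIF3C, a subunit of the eIF3 core, read 0.39, 0.25, 0.24 and 0.11 on arrays 1 to 4, an estimate of 0.25 ± 0.07 (SE, n = 4, limma adjusted p = 0.0203). It was above 0 on every array, with a dye term of 0.07 that was not past the threshold. EIF3C has a near-identical copy, EIF3CL, whose transcripts the probe may also bind.

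EIF3H, another subunit, read 0.94, 0.95, -0.29 and -0.50, an estimate of 0.28 ± 0.07 (SE, n = 4, limma adjusted p = 0.0141). It was high only where treated RNA carried Cy5. The lowest eIF3 estimate was that of EIF3I, -0.20 ± 0.09 (SE, n = 3, limma adjusted p = 0.111), which read 0.23, -0.72 and -0.54 on arrays 2 to 4. It was called lower at -0.37 with median centring (limma adjusted p = 0.0153), and stood at -0.05 with its flagged spot kept. Array 1 did not measure EIF3I, so the fit without that array used the same 3 values. The estimate stayed at -0.20, but the gene was called lower there (limma adjusted p = 0.0407). EIF3A, the largest subunit, was nearest the group's median at 0.04 and spread most, from -1.21 on array 1 to 0.84 on array 4, and without array 1 it was called higher at 0.26 (limma adjusted p = 0.00823). The EIF3F probe was not well above background. The calls of EIF3H and EIF3C were lost under 10 and 9 of the 16 other settings, median centring among them, which also put the group's median at -0.09 in place of 0.04.

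The eIF4 genes leaned the other way, but mainly on arrays 1 and 2. Their median was -0.47, -0.25, -0.02 and 0.05 on arrays 1 to 4, and 7 of the 9 tested had opposite signs in the 2 orientations. Of 9 tested, EIF4ENIF1 included, 8 had estimates below 0, as had 4161 of all 8852 probes, and EIF4B and EIF4E were called lower. EIF4E, which binds the cap, read -0.25, -0.27 and -0.23 on arrays 2 to 4, and its spot on array 1 was flagged. The 3 values were close together, with an estimate of -0.25 ± 0.08 (SE, n = 3) and a limma adjusted p of 0.0482, just under the threshold.

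EIF4B, which stimulates the helicase eIF4A, read -0.83, -0.54, -0.02 and 0.15, an estimate of -0.31 ± 0.08 (SE, n = 4, limma adjusted p = 0.0136). The fall was on arrays 1 and 2, and arrays 3 and 4 lay near 0. EIF4E2, a cap-binding relative of EIF4E, read -0.45, -0.10, -0.13 and -0.10 and did not pass the test at -0.20 ± 0.08 (SE, n = 4, limma adjusted p = 0.0763). The highest estimate of the group was 0.05 for EIF4H, and EIF4G2, the median one, stood at -0.12, but at -0.30 and called lower with median centring (limma adjusted p = 0.0165). EIF4E2 was called lower at -0.29 without array 2 (limma adjusted p = 0.00857), stood at -0.11 without array 1 (limma adjusted p = 0.267), and was called at -0.20 where each array had to be well above background in both channels (limma adjusted p = 0.0455).

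EIF4A3, EIF4E3, EIF4ENIF1 and EIF4G1 were tested and not called in the fit described above, and the remaining eIF4 genes could not be fitted. EIF4A2 and EIF4G3 were not well above background, and EIF4A1, the main helicase, had flagged spots on arrays 1 and 2. EIF4E could be fitted under 13 of the 16 other settings and lost its call under 8 of them, among them median centring (limma adjusted p = 0.0779). With its flagged spot on array 1 kept, its estimate was -0.14 (limma adjusted p = 0.265). EIF4B could be fitted under 15 and lost its call under 4, among them without array 3 or array 4 (limma adjusted p = 0.123 and 0.0688). Its estimate was -0.52 with the scanner software's processed signals. The series table, which holds ratios from the same software, also gave -0.52 and is no separate support.

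Neither EIF4EBP gene was called in the fit described above. EIF4EBP1 read -0.05, 0.04, 0.19 and 0.08, an estimate of 0.07 ± 0.07 (SE, n = 4, limma adjusted p = 0.463) with a 95% interval from -0.08 to 0.22. EIF4EBP2 read -0.62, -0.91, 0.67 and 0.55, an estimate of -0.08 ± 0.07 (SE, n = 4, limma adjusted p = 0.449) with a 95% interval from -0.25 to 0.09. EIF4EBP1 stayed near 0 in both orientations, while EIF4EBP2, whose probe has 26.7% G and C, had opposite values that cancelled. After an adjustment of the ratios for probe composition, added after the data were seen, EIF4EBP2 stood at -0.23 and was called lower (limma adjusted p = 0.0468). The same adjustment put EIF4EBP1 at 0.17, just short of the threshold (limma adjusted p = 0.0522). With the scanner software's processed signals EIF4EBP1 stood at -0.05 (limma adjusted p = 0.75).

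The group medians did not keep their order across the arrays. Over the fit, the median log2 ratio was 0.01 for the 7 eIF2 and eIF2B genes, 0.04 for eIF3, -0.12 for eIF4 and -0.01 for EIF4EBP, against 0.02 for all probes. The eIF3 median minus the eIF4 median was 0.77, 0.48, -0.18 and -0.22 in the order of the arrays. The eIF3 genes thus stood above the eIF4 genes on arrays 1 and 2 and below them on arrays 3 and 4. The difference was 0.21 ± 0.49 (SD over 4 arrays), smaller than its spread. That of eIF2 and eIF2B minus eIF4 was 0.23 ± 0.27 (SD over 4 arrays) and was above 0 on 3 of 4. For EIF4EBP minus eIF4 it was 0.17 ± 0.27 (SD over 4 arrays), also above 0 on 3 of 4. These medians were not tested, since the members were chosen with results of these data known.

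**Figure D4:**
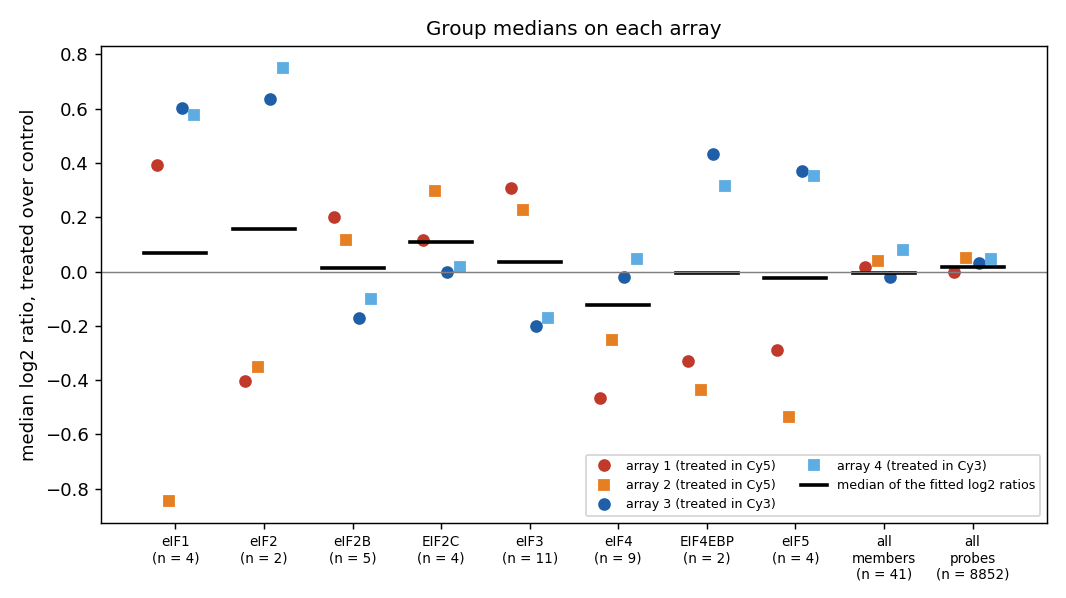
Median log2 ratio of treated over control cells (y axis) in each group of genes (x axis, with the number tested) on each array (points) and over the fitted values (black lines). A flagged spot is left out of its array's median, which on array 1 leaves 28 of the 41 members tested. The eIF3 median is above the eIF4 median on arrays 1 and 2 and below it on arrays 3 and 4.

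Of the genes of start codon recognition, EIF1, which keeps the scanning ribosome open, was called higher. It read 1.16, 1.33, -0.74 and -0.74, an estimate of 0.25 ± 0.07 (SE, n = 4, limma adjusted p = 0.0189). Its values were the mirror image of those of EIF2S2, high on arrays 1 and 2. The other eIF1 genes were not called, nor were EIF5, EIF5A, EIF5A2 and EIF5B. Among the eIF5 genes, EIF5B, the GTPase of subunit joining, had the lowest estimate at -0.17 ± 0.09 (SE, n = 3, limma adjusted p = 0.159; called lower at -0.26 after the adjustment for composition) and EIF5A, the factor that carries hypusine, the highest at 0.12 (limma adjusted p = 0.304). EIF5 was nearest the group's median at -0.02. The call of EIF1 was lost under 10 of the 16 other settings, and median centring gave 0.04 in place of 0.25.

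The Argonaute genes, which the old names brought in, held 2 of the 6 members called higher. AGO3 read 0.08, 0.23, 0.27 and 0.28, an estimate of 0.21 ± 0.07 (SE, n = 4, limma adjusted p = 0.0339), and was above 0 on every array. AGO4 read -0.21, 0.15, 0.54 and 0.89, an estimate of 0.34 ± 0.09 (SE, n = 4, limma adjusted p = 0.0168), from a dim probe that was well above background on 2 arrays in treated cells and on 1 in control cells. AGO1 (-0.02) and AGO2, the slicing Argonaute (0.01), were not called. Both calls were lost after the adjustment for probe composition (limma adjusted p = 0.0727 for AGO3 and 0.0544 for AGO4). AGO3 lost its call under 8 of 16 other settings, among them without array 2, 3 or 4 (limma adjusted p = 0.074, 0.166 and 0.198). AGO4 lost its call under 4 of the 15 that fitted it, among them without array 4 (limma adjusted p = 0.176), and its estimate was 0.59 with the series table.

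An exact two-sided sign-flip permutation test over 4 arrays cannot go below p = 0.125, and AGO3, EIF3C and EIF4E2 reached that value. Over 3 arrays it cannot go below 0.25, the exact value of EIF4E. The other named members had exact sign-flip p-values from 0.375 to 1.

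Some genes listed for translation control had larger ratios than any initiation factor gene. Of 31 tested genes in a list of translation control genes, 8 were called higher (25.8%, against 24.3% of all probes) and 7 lower (22.6%, against 13%), and 5 reached 1.5-fold (16.1%, against 7.22%), while the median size of the log2 ratio was 0.12, as over the members. SESN2, a stress-induced inhibitor of mTOR complex 1, read 0.97, 1.91, 0.79 and 0.98, an estimate of 1.16 ± 0.13 (SE, n = 4, limma adjusted p = 0.00034). PPP1R15A, also called GADD34, which directs a phosphatase to eIF2, read 0.97, 1.68, 0.30 and 0.21, an estimate of 0.79 ± 0.11 (SE, n = 4, limma adjusted p = 0.000787). Both were above 0 on every array, as was RICTOR, a subunit of mTOR complex 2, at 0.53, 0.64, 1.01 and 0.97 (estimate 0.79).

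ABCE1, the factor that splits ribosomes after termination, had the largest fall of the list, with an estimate of -1.04 ± 0.09 (SE, n = 4, limma adjusted p = 0.000121). Its ratios were -2.01 and -2.42 on arrays 1 and 2 but 0.33 and -0.07 on arrays 3 and 4, so the fall was seen in 1 orientation. The median of the list was 0.03, near the 0.02 of all probes.

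Of 24 genes in a list of elongation and termination genes, 1 was called higher (4.17%, against 24.3% of all probes) and 4 lower (16.7%, against 13%). The list also holds DHPS and DOHH, the enzymes that make hypusine, and the mitochondrial initiation factors MTIF2 (estimate 0.01) and MTIF3 (-0.10). None of these was called. GFM2, a mitochondrial factor, was above 0 on every array (0.14, 0.22, 0.67 and 0.53; estimate 0.39, limma adjusted p = 0.00244). ETF1, which reads stop codons, was below 0 on the 3 arrays that measured it (-0.58, -0.16 and -0.04; estimate -0.34, limma adjusted p = 0.0185). Its partner GSPT1 had an estimate of -0.31 and the mitochondrial factor GFM1 one of -0.29. Both were below 0 on arrays 1 and 2 and just above 0 on arrays 3 and 4.

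**Figure D5:**
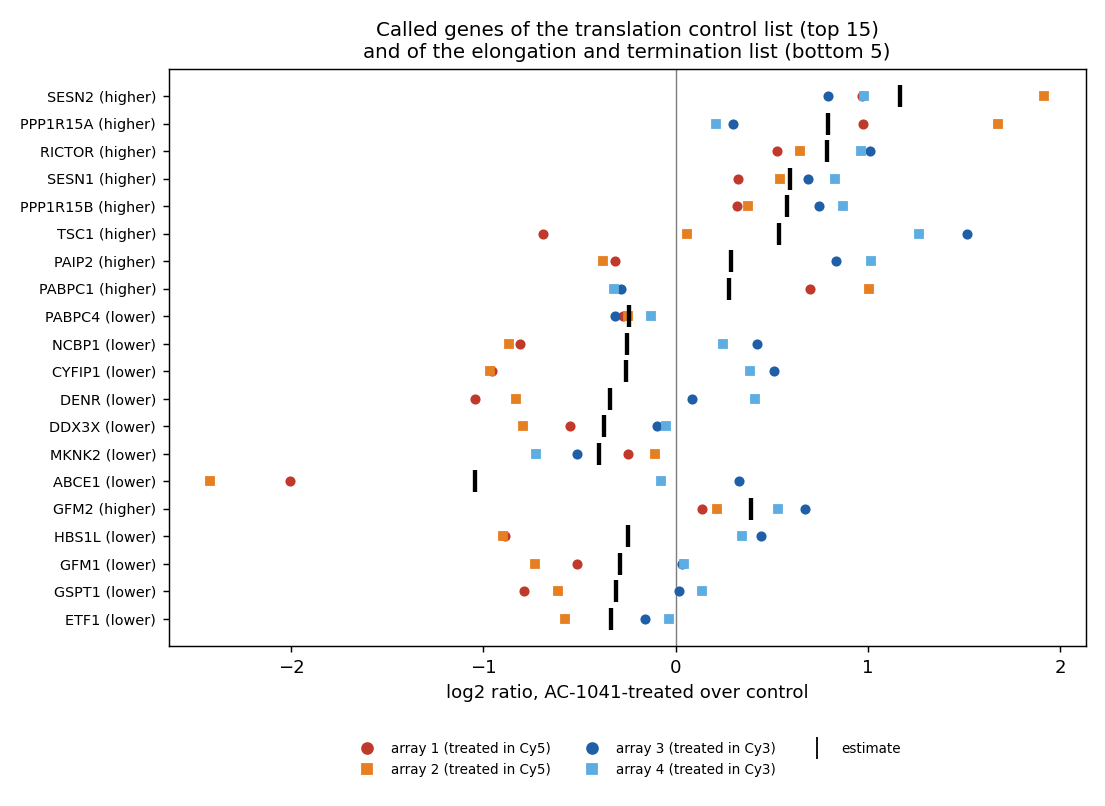
Log2 ratio of treated over control cells (x axis) for the called genes of the translation control list (top 15 rows) and of the elongation and termination list (bottom 5 rows). Points are arrays and black ticks the limma estimate. SESN2, PPP1R15A and RICTOR are above 0 on all 4 arrays, and ABCE1 is far below 0 on arrays 1 and 2 alone.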

How the data were processed

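Log2 ratios of AC-1041-treated over control K562 cells were taken from 4 arrays with both RNAs on each. The authors read the scans with Agilent Feature Extraction 9.5.1.1, and the deposited intensity values of spot and local background in both channels are not normalized. The deposited files also hold processed intensity values and a log10 ratio of Cy5 over Cy3, and the authors' series table holds log10 ratios that matched the latter, turned to treated over control, with column medians of 0; both served as alternatives.

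Background was corrected with normexp (offset 50) and each array normalized by loess (span 0.3, flagged outlier spots at weight 0 and then left out). Probes well above background in a channel on at least 2 arrays and measured on at least 3 were fitted in R 4.3.3 (limma 3.58.1) for treatment, beside a term for the dye, and p-values were adjusted by Benjamini-Hochberg over all 8852. Array number limits the precision. Present gene names came from a RefSeq table of human genes, through the accession for 41 of the 46 members; positions are the files' hg18 ones. On simulated arrays the fit recovered the changes without bias, but the share of false calls depended on how the probes' variances were drawn: it was near the threshold when they followed limma's own prior, below it with each probe's residual variance, and above it with the moderated variances, so calls close to the threshold may be false more often than the adjusted p states.

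The members, groups and lists were chosen with earlier results of these data known. Named genes are the EIF4EBP genes, the 5 largest rises and falls, called members with 1 direction on all 4 arrays, 3 examples a group and up to 4 genes a list. EIF1AY was counted, and its values are not reported here. Some marker results are not reported here. The alternatives were other background corrections and scalings, the series table, other filters, no dye term, an intensity-dependent prior, an adjusted p under 0.01 and leaving out each array.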

Additional observations from a re-analysis of the deposited data

Results flagged for a closer look

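Of 28 initiation factor genes measured on all 4 arrays, 1 had an array far from the others. For EIF4E2, array 1 read -0.45 and the others -0.10, -0.13 and -0.10, and the gap from array 1 to the nearest made up 0.897 of the range, past the critical value of Dixon's test. Chance gives such a gap in about 1 in 20 genes where all 4 values are drawn alike. The arrays fall in pairs by dye orientation and signal quality, so this rate may not hold here.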

How the results depend on the processing

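The 8 calls among initiation factor genes changed with most settings, and none was kept under all 16. Of these settings, the processed signals and the series table come from the same scanner software. They gave nearly the same values for most named genes and are not independent. Members called higher and lower were 6 and 2, and they became 2 and 1 both with the scanner software's processed signals and with the series table, 3 and 3 with median centring, 1 and 0 at an adjusted p under 0.01, and 0 and 0 without the dye term, where no member had an unadjusted p under 0.05. Those called lower fell to 1 with no filter on dim probes and with outlier spots kept. Leaving out each array gave 0 to 9 higher and 0 to 3 lower: 9 and 3 without array 1, 1 and 0 without array 3, and 0 and 0 without array 4, where 28 members were tested and 5 had an unadjusted p under 0.05. Among all probes, median centring called 25.8% higher and 6.65% lower, against 24.3% and 13%.

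Flagged spots had been given no weight in the loess curve with the counts of both ways known; leaving them in the curve, a setting added after the data were seen, gave 3 higher and 1 lower. Adjusting the ratios for probe composition, also added then, gave 3 and 5. The cause of these changes was not tested.

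The group medians changed by less than the SD of their array medians. This SD takes in the swing between dye orientations (0.26 for eIF3, 0.23 for eIF4 and 0.44 for EIF4EBP), so staying under it says little about stability. The eIF3 median, 0.04 in the fit, was -0.09 with median centring. Estimates near 0 changed sign. With processed signals and the series table, AGO2 read -0.0068, EIF4EBP1 -0.048 and EIF4H -0.019. With median centring AGO1 read 0.074, EIF3A -0.023, EIF4H -0.049 and EIF5 0.10. With outlier spots kept EIF2B3 read -0.0077 and EIF5A -0.11; without the dye term EIF5A read -0.014 and EIF5B 0.14; adjusted for composition, AGO2 read -0.0026, EIF2B3 -0.0050 and EIF2S3 -0.015. Leaving out each array gave -0.073 to 0.034 for AGO1, -0.040 to 0.052 for AGO2, -0.047 to 0.070 for EIF2S3, -0.19 to 0.26 for EIF3A and -0.058 to 0.010 for EIF5.

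In the translation control list, 8 were higher and 7 lower, against 5 higher where each array had to be well above background in both channels, 0 and 0 without the dye term, and 3 lower with median centring and at an adjusted p under 0.01. Leaving out each array gave 5 to 9 higher and 3 to 8 lower. In the elongation and termination list, 1 was higher and 4 lower, against 0 and 0 without the dye term, 2 lower with median centring, 1 lower at an adjusted p under 0.01 and 2 higher after the adjustment for composition. Leaving out each array gave 1 to 5 higher and 0 to 4 lower. Each member has 1 probe, so the rule for several probes changed nothing. Each ratio already pairs treated and control RNA within an array.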

Other observations

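The array also holds initiation factor genes under names that the rule does not reach. EIF2D, listed under its older name LGTN, read -0.05, -0.21, 0.25 and 0.10 on arrays 1 to 4 (estimate 0.02 ± 0.07, SE; limma adjusted p = 0.84). EIF6, listed as ITGB4BP, read 0.29, -0.19 and -0.36 on arrays 2 to 4 (estimate 0.01 ± 0.09, SE; limma adjusted p = 0.951). EIF2D and EIF6 had opposite signs in the 2 dye orientations, as most members did. The mitochondrial initiation factors MTIF2 and MTIF3 were counted in the elongation and termination list.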
